A study of Mus musculus with 6 samples.

Results

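The enzymes that methylate DNA at cytosine and histone H3 at lysine 9 were followed in LSK cells (Lin-Sca+Kit+ bone marrow cells, the fraction that holds hematopoietic stem cells and multipotent progenitors) with and without Oga. The set has 9 genes, chosen by name with earlier results of these data known: the DNA methyltransferases Dnmt1, Dnmt3a and Dnmt3b, the corepressor Trim28, and the H3K9 methyltransferases Setdb1, Ehmt1, Ehmt2, Suv39h1 and Suv39h2. They are 9 of the 53445 loci of the deposited table. Where a symbol named several loci, the longest was taken. All 9 had enough reads to be among the 22032 loci tested.

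Oga encodes the enzyme that removes O-GlcNAc, a sugar added to serine and threonine of nuclear and cytoplasmic proteins. OgaVav-Cre mice, bred from Oga fl/fl mice, carry Oga floxed on both alleles and the Vav-iCre transgene. The transgene is active in the hematopoietic lineage, so that Oga is deleted in all blood lineages and not in LSK cells alone. The libraries came from 3 OgaVav-Cre and 3 wildtype mice, all female, on a C57BL/6 background and about 12 weeks of age, with 1 library of poly(A) RNA from at least 20000 sorted cells of each mouse. The labels do not say whether the wildtype mice carried the transgene, so that the deletion of Oga and the presence of Cre cannot be told apart.

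DNA methylation and H3K9 methylation are the best known pair of marks of stably silent chromatin. Dnmt1 copies methylation onto the new strand after replication, and Dnmt3a and Dnmt3b place it on unmodified sites. KRAB zinc finger proteins bind DNA and recruit Trim28, which brings Setdb1 to write H3K9 trimethylation, while Ehmt1 and Ehmt2 write the mono- and dimethyl marks and Suv39h1 and Suv39h2 the trimethyl mark of pericentric heterochromatin. In adult blood these enzymes keep germline genes and retroviral copies silent, and loss of Dnmt3a is known to expand hematopoietic stem cells.

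Library totals lay between 19318056 and 27064389 reads, and all 3 totals of OgaVav-Cre were above those of wildtype. Mgea5, the symbol under which the table lists Oga, kept 104 to 110 reads a library in OgaVav-Cre against 2736 to 3164 in wildtype, in the direction that the labels give. The summed level of 10 LSK markers ran from 1104 to 2093 CPM (read counts scaled to a common library size with TMM factors) in OgaVav-Cre and from 1380 to 2168 CPM in wildtype libraries, and the defining markers Kit and Ly6a (Sca-1) had reads in all 6. The summed level of 10 markers of lineage-positive cells ran from 122 to 564 CPM and from 134 to 384 CPM, with Ly6g at 0 in wildtype library 1. Plasma cell markers, 9 of 10 in the table and led by Ighm, ran from 9317 to 88588 CPM and from 9621 to 41244 CPM. All 9 had a log2 fold change above 0 (median 0.68), while 0 were called or had an unadjusted p below 0.05 with edgeR, and their part in the results was not tested. In bulk libraries, fewer cells of a type and less RNA per cell cannot be told apart.

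None of the 9 genes passed the test of a difference between genotypes. With both cutoffs set (adjusted p under 0.05, log2 fold change beyond 1), edgeR's quasi-likelihood test called 0 of the 9 and 7 of all 22032 loci, which is 0.0318%. At an unadjusted p below 0.05 it again gave 0 of the 9, where 10.6% of all loci passed. The levels of both genotypes overlapped for each of the 9 genes, while they did not overlap for 17.5% of all loci. The fitted differences, OgaVav-Cre minus wildtype on the log2 scale, ran from -0.10 for Setdb1 to 0.26 for Dnmt1, with a median of 0.029, beside 0.0041 over all loci tested.

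**Figure D1:**
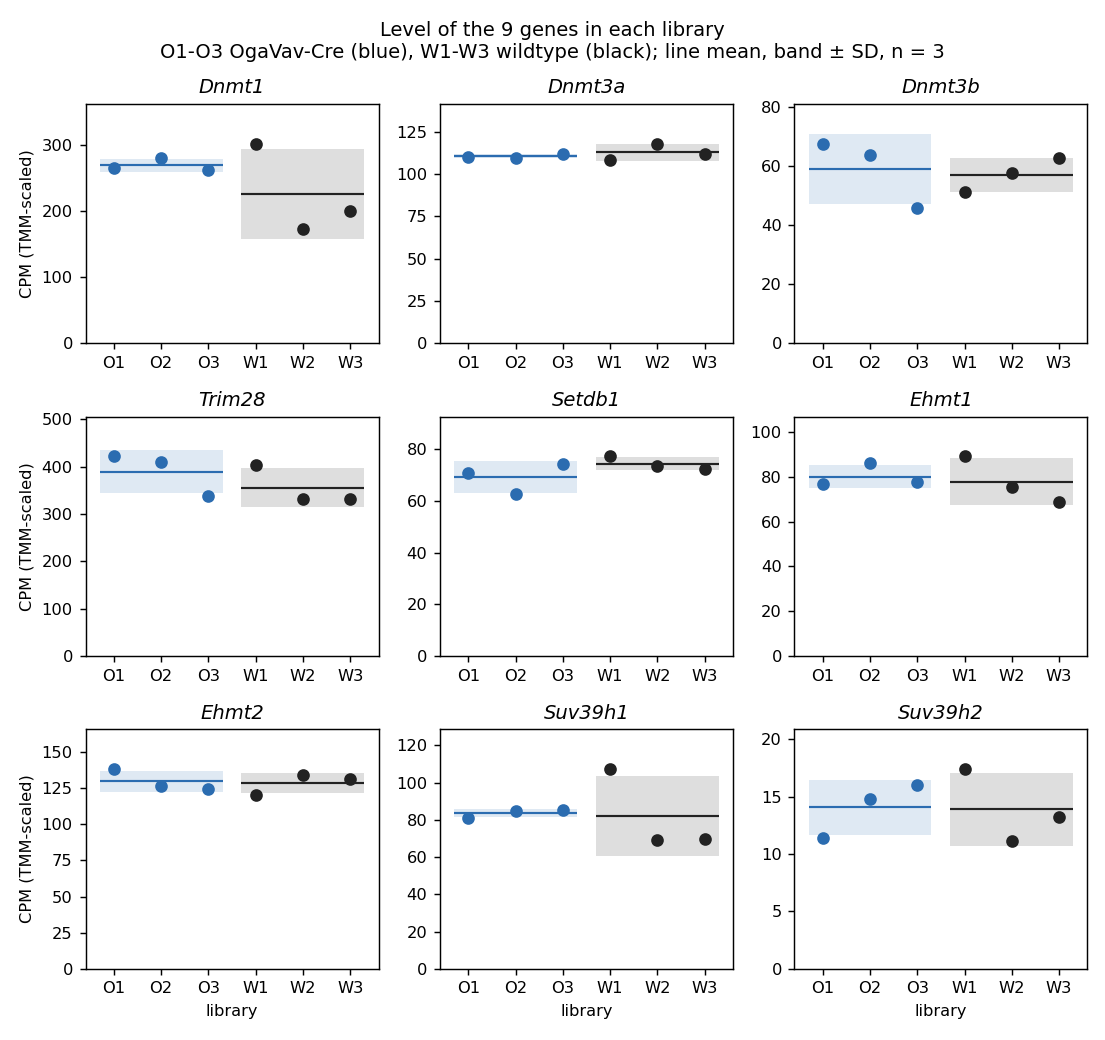
Level of each gene in CPM (vertical axis, from 0) in OgaVav-Cre libraries O1 to O3 and wildtype libraries W1 to W3 (horizontal axis). Points are single mice, lines are the means and bands 1 SD to either side (n = 3). The genotypes overlap in all 9 panels, and the band of wildtype is wide for Dnmt1 and Suv39h1, where W1 is the highest of the 6 libraries.

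The maintenance methyltransferase Dnmt1 lies on the minus strand at chr9:20711418-20764332 (mm9) and is listed with 41 exons. It had 5951, 7065 and 7180 reads in OgaVav-Cre libraries 1, 2 and 3, or 264, 280 and 262 CPM. In wildtype libraries 1, 2 and 3 it had 6433, 3323 and 4729 reads, or 301, 172 and 200 CPM. The 3 OgaVav-Cre libraries were close together, and they lay below wildtype library 1 and above the other wildtype libraries.

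OgaVav-Cre cells had a mean of 268 ± 9.66 CPM for Dnmt1 (SD, n = 3), and wildtype cells one of 225 ± 68.0 CPM (SD, n = 3). The log2 fold change was 0.26 (standard error 0.208, 95% interval -0.23 to 0.74, edgeR adjusted p = 0.665), so a fall by more than 14.5% or a rise by more than 67.1% lay outside the interval. The value moved with each of the wildtype libraries 1 and 2. With wildtype library 1 left out, 3385 of 23284 loci had an unadjusted p below 0.05 (edgeR). The log2 fold change of Dnmt1 was then 0.53 (edgeR, unadjusted p = 0.00646, adjusted p = 0.241). Without wildtype library 2 it was 0.11 (adjusted p = 0.898, edgeR), without wildtype library 3 it was 0.18 (adjusted p = 0.915, edgeR), and the adjusted p ran from 0.241 to 0.915 over the 15 alternatives.

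RefSeq lists 3 starts for Dnmt1, and the promoter of the most downstream start holds 33 CpG dinucleotides, against 2 and 12 in the others. The sequences of this promoter, of one of Suv39h1 and of the Trim28 promoter are shown. CpG sites are the substrate of the DNA methyltransferases Dnmt1, Dnmt3a and Dnmt3b, and the first pair holds motifs of E2F factors, which are known to drive S phase genes. Each sequence runs from 250 bases before to 50 bases after a start, was taken from RefSeq (GRCm38.p6) and was matched to mm9, where each occurs 1 time. Capitals mark matches to TTTCCCGC, TTTCGCGC, TTTGGCGC or TTTGCCGC, searched on both strands.
Dnmt1, minus strand, chr9:20757018-20757317: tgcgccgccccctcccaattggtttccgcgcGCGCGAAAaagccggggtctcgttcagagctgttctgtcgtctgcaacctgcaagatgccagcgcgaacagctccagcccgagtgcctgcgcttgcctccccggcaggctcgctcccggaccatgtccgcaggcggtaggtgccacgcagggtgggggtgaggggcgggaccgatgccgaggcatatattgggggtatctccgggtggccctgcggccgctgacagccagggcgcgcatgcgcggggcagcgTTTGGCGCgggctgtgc
Suv39h1, minus strand, chrX:7651438-7651737: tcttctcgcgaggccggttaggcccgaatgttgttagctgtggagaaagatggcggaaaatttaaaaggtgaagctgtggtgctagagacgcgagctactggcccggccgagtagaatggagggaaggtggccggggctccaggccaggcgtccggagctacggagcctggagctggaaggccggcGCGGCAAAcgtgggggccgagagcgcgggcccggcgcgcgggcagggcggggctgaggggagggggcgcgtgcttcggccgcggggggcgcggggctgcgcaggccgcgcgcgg
Trim28, plus strand, chr7:13609251-13609550: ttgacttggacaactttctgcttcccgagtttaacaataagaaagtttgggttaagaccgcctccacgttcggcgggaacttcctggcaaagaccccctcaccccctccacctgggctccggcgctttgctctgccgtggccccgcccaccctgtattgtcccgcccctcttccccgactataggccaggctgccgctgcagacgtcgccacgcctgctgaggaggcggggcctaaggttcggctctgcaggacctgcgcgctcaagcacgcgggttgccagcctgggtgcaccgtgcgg

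Of 15 RefSeq promoters of the 9 genes, these of Dnmt1 and Suv39h1 were the 2 with a match (13.3%). The first bases of the matches lay 219 bases before and 33 bases after the start of Dnmt1 and 64 bases before that of Suv39h1. A match was found in 2.26% of all 32851 promoters of the same length. Of the 17 S phase and mitosis genes described below, 15 had promoters listed under their symbol, and 7 of these 16 promoters (43.8%) had a match. The promoters of the 9 genes held a median of 30 CpG dinucleotides, against 7 over all promoters. The matches are a description of the letters in these windows. The Trim28 promoter, with 23 CpG dinucleotides and no match, lies inside a second, antisense locus described with that gene.

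The de novo methyltransferase Dnmt3a, on the plus strand at chr12:3806007-3914443, was the steadiest of the 9 genes. It was at 110.1, 109.6 and 111.8 CPM in OgaVav-Cre and at 108.3, 118.0 and 112.0 CPM in wildtype libraries 1, 2 and 3. The highest and the lowest library were both wildtype, and all of OgaVav-Cre lay between them. Its coefficient of variation was 1.03% in OgaVav-Cre and 4.33% in wildtype, where the median over all loci tested was 17.9% and 18.3%. Between genotypes it differed by a log2 fold change of -0.03 (standard error 0.104, 95% interval -0.27 to 0.21, edgeR adjusted p = 0.933).

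Dnmt3b, the second de novo enzyme, lies on the plus strand at chr2:153475186-153513466. It was at 67.6, 63.7 and 45.6 CPM in OgaVav-Cre and at 51.0, 57.6 and 62.6 CPM in wildtype libraries 1, 2 and 3. The highest and the lowest library were both OgaVav-Cre. The lowest, OgaVav-Cre library 3, also had the lowest summed LSK markers (1104 CPM) and the highest summed markers of lineage-positive cells (564 CPM), and their part in the result was not tested. OgaVav-Cre over wildtype gave a log2 fold change of 0.05 (standard error 0.170, 95% interval -0.35 to 0.44, edgeR adjusted p = 0.936).

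Trim28, also called KAP1, on the plus strand at chr7:13609501-13616387, had the most reads of the set. It was at 422, 409 and 338 CPM in OgaVav-Cre and at 403, 331 and 332 CPM in wildtype libraries 1, 2 and 3. The libraries fell into a higher and a lower range with both genotypes in each. For Trim28 the log2 fold change was 0.13 (standard error 0.149, 95% interval -0.21 to 0.48, edgeR adjusted p = 0.762).

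The table holds a second locus under the symbol Trim28, on the minus strand at chr7:13609067-13609944, with 1 exon of 878 bases that spans the start of the gene and shares 444 bases with it. OgaVav-Cre libraries 1, 2 and 3 had 184, 259 and 160 reads there, or 8.16, 10.2 and 5.84 CPM. Wildtype libraries 1, 2 and 3 had 112, 76 and 117 reads, or 5.25, 3.94 and 4.95 CPM. The lowest OgaVav-Cre library was above the highest wildtype library, as for 7.50% of all loci tested. The log2 fold change was 0.78 (standard error 0.270, 95% interval 0.15 to 1.40), with an unadjusted p of 0.0214 and an adjusted p of 0.423 from edgeR, so that it did not pass the test. The unadjusted p was below 0.05 in 13 of the 15 alternatives. The library kit does not mark strand, so reads in the shared bases cannot be assigned to one of the loci, and at most 259 reads of this locus stand beside 6380 or more of the gene.

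Setdb1, the enzyme for H3K9 trimethylation that Trim28 recruits, lies on the minus strand at chr3:95127447-95161124. It was at 70.9, 62.6 and 74.4 CPM in OgaVav-Cre and at 77.2, 73.6 and 72.4 CPM in wildtype libraries 1, 2 and 3. OgaVav-Cre libraries 1 and 2 were below all wildtype libraries, and OgaVav-Cre library 3 lay among them. Setdb1 differed by a log2 fold change of -0.10 (standard error 0.112, 95% interval -0.36 to 0.16, edgeR adjusted p = 0.755). Lass2, with 2207 to 2972 reads a library, overlaps its end on the opposite strand by 4292 bases.

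Ehmt1 (GLP) and Ehmt2 (G9a) act as a pair that mono- and dimethylates H3K9. Ehmt1, on the minus strand at chr2:24646289-24775129, was at 76.6, 86.1 and 77.5 CPM in OgaVav-Cre and at 89.1, 75.6 and 68.5 CPM in wildtype libraries 1, 2 and 3. All OgaVav-Cre libraries lay between wildtype libraries 1 and 2. Its log2 fold change was 0.04 (standard error 0.132, 95% interval -0.26 to 0.35, edgeR adjusted p = 0.924). The table lists LOC100044324 separately on the same strand at the end of Ehmt1, with 530 to 831 reads a library, and how reads shared by both loci were counted is not stated.

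Ehmt2, on the plus strand at chr17:35035414-35050997, overlaps no other locus of the table. It was at 138, 126 and 125 CPM in OgaVav-Cre and at 120, 134 and 131 CPM in wildtype libraries 1, 2 and 3. The genotypes covered nearly the same range, with coefficients of variation of 5.65% and 5.57%. The genotypes differed by a log2 fold change of 0.01 (standard error 0.112, 95% interval -0.25 to 0.27, edgeR adjusted p = 0.976).

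Suv39h1, on the minus strand at chrX:7638297-7651886, was at 81.0, 84.6 and 85.5 CPM in OgaVav-Cre and at 107, 69.4 and 69.6 CPM in wildtype libraries 1, 2 and 3. As for Dnmt1, the OgaVav-Cre libraries were close together between a high wildtype library 1 and lower wildtype libraries 2 and 3. The coefficient of variation was 2.82% in OgaVav-Cre and 26.5% in wildtype. The log2 fold change was 0.03 (standard error 0.182, 95% interval -0.39 to 0.45, edgeR adjusted p = 0.966), and without wildtype library 1 it was 0.27 (unadjusted p = 0.0415, adjusted p = 0.330, edgeR), the lowest of adjusted p-values that ran up to 0.991 over the 15 alternatives. In the fit without wildtype library 1, 3385 of 23284 loci had an unadjusted p below 0.05 (edgeR). LOC100504708 overlaps Suv39h1 on the opposite strand and had 239 to 460 reads a library.

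Suv39h2, on the minus strand at chr2:3372007-3392303, had the fewest reads, from 215 to 440 a library. It was at 11.4, 14.8 and 16.1 CPM in OgaVav-Cre and at 17.4, 11.2 and 13.2 CPM in wildtype libraries 1, 2 and 3. Wildtype libraries were both the highest and the lowest. The log2 fold change was 0.02 (standard error 0.222, 95% interval -0.50 to 0.53, edgeR adjusted p = 0.985), the widest interval of the 9. Dclre1c overlaps Suv39h2 by 9396 bases on the opposite strand and had 452 to 1021 reads a library, more than Suv39h2 in each. How reads in the shared bases were counted is not stated.

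**Figure D2:**
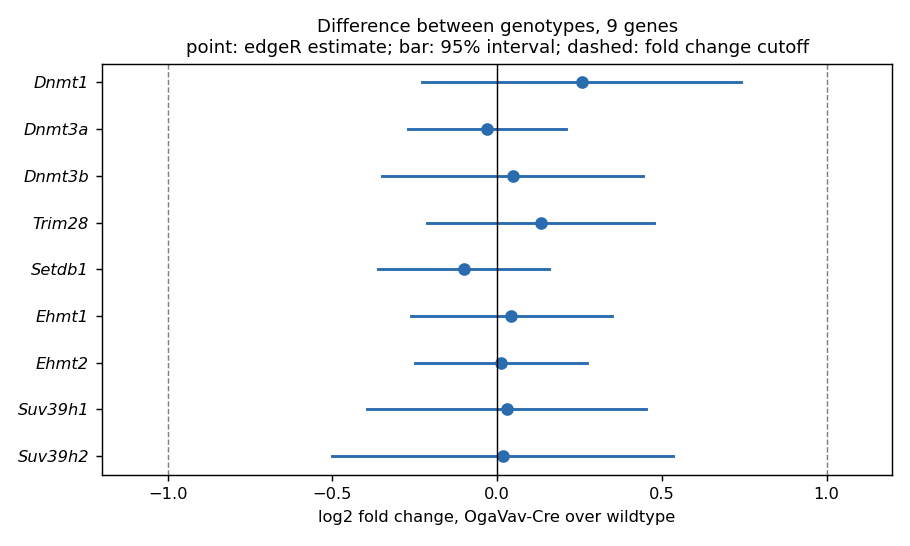
Log2 fold change of OgaVav-Cre over wildtype (horizontal axis) for each of the 9 genes, with the edgeR estimate as a point, its 95% interval as a bar and dashed lines at the fold change cutoff of 1 in each direction. All 9 intervals include 0 and stay inside the dashed lines, and Dnmt1 has the highest estimate, 0.26.

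Levels were compared between genes per length, with the RPKM that the authors deposited. In wildtype cells Trim28 was the highest at 78.2 ± 9.54 RPKM (SD, n = 3), followed by Dnmt1 at 30.7 ± 9.52, Ehmt2 at 20.5 ± 1.09 and Suv39h1 at 13.9 ± 3.75 RPKM. Dnmt3b at 9.97 ± 1.13, Ehmt1 at 9.73 ± 1.29 and Setdb1 at 9.54 ± 0.387 RPKM did not differ beyond their spread, and their order changed between libraries. Dnmt3a followed at 6.61 ± 0.199 RPKM and Suv39h2 at 1.70 ± 0.405 RPKM. The places of Trim28, Dnmt1, Ehmt2, Suv39h1, Dnmt3a and Suv39h2 were the same in all 6 libraries. This order rests on the length of the locus in the table. With the longest coding sequence as the length, an alternative added after the data were seen, the order of the wildtype means was Trim28, Suv39h1, Dnmt1, Dnmt3a, Ehmt2, Dnmt3b, Ehmt1, Setdb1 and Suv39h2. Trim28 was above 97.3% of all loci tested and Suv39h2 above 33.9%, by the wildtype mean in RPKM.

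**Figure D3:**
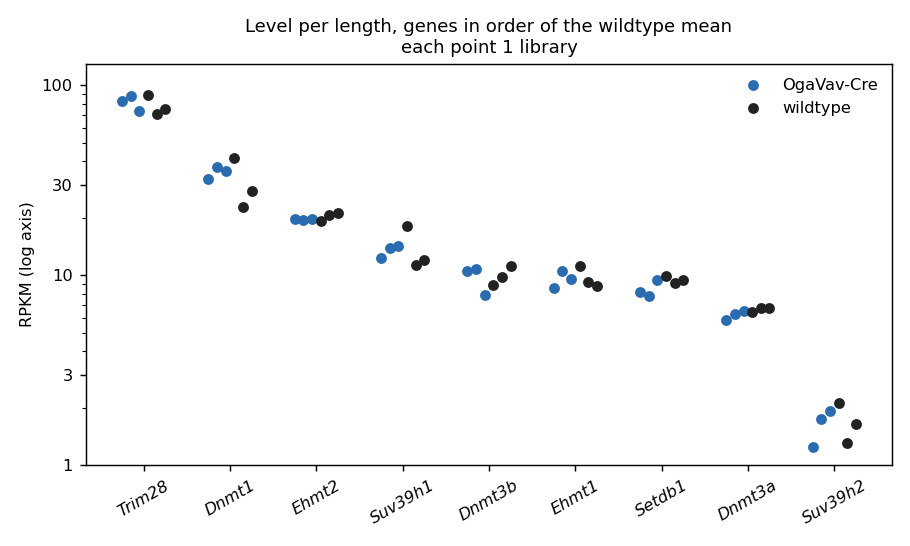
RPKM of each gene (vertical log axis) in order of the wildtype mean, with 1 point for each library, OgaVav-Cre in blue and wildtype in black. Trim28 lies between 70.8 and 89.0 RPKM and Suv39h2 between 1.24 and 2.12 RPKM.

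The balance within pairs of related enzymes differed between genotypes by less than the spread between mice. Of the summed RPKM of Dnmt3a and Dnmt3b, Dnmt3a made up 39.1 ± 5.32% in OgaVav-Cre and 40.0 ± 2.14% in wildtype cells (SD, n = 3, exact two-sided permutation p = 0.8). Ehmt1 made up 32.7 ± 2.25% and 32.2 ± 4.03% of Ehmt1 and Ehmt2 (SD, n = 3, exact two-sided permutation p = 0.9). Suv39h1 made up 89.3 ± 1.40% and 89.1 ± 0.918% of Suv39h1 and Suv39h2 (SD, n = 3, exact two-sided permutation p = 0.9). The differences were -0.945, 0.499 and 0.192 percentage points. Adjusted over the 3 pairs each p was 0.9, and 3 mice against 3 cannot give a p below 0.1. The share of Dnmt3a also rests on the length used, 15189 bases in the table. With the longest coding sequence in its place it was 64.2% and 65.2%, above Dnmt3b rather than below it.

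The spread among wildtype mice was shared by several of the genes. Wildtype library 1 was the highest of the 6 libraries for 5 of the 9 genes, Dnmt1, Setdb1, Ehmt1, Suv39h1 and Suv39h2, where it was the highest for 14.6% of all loci tested. Wildtype library 2 was the lowest for 4 of the 9, Dnmt1, Trim28, Suv39h1 and Suv39h2, where it was the lowest for 16.7% of all loci. Of 17 genes of S phase and mitosis, 13 were highest in wildtype library 1 and 14 were lowest in wildtype library 2. Their summed level was 2725, 2827 and 2848 CPM in OgaVav-Cre libraries 1, 2 and 3, against 3746, 1767 and 2105 CPM in the wildtype libraries. The part of these genes in the spread of Dnmt1 and Suv39h1 was not tested.

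**Figure D4:**
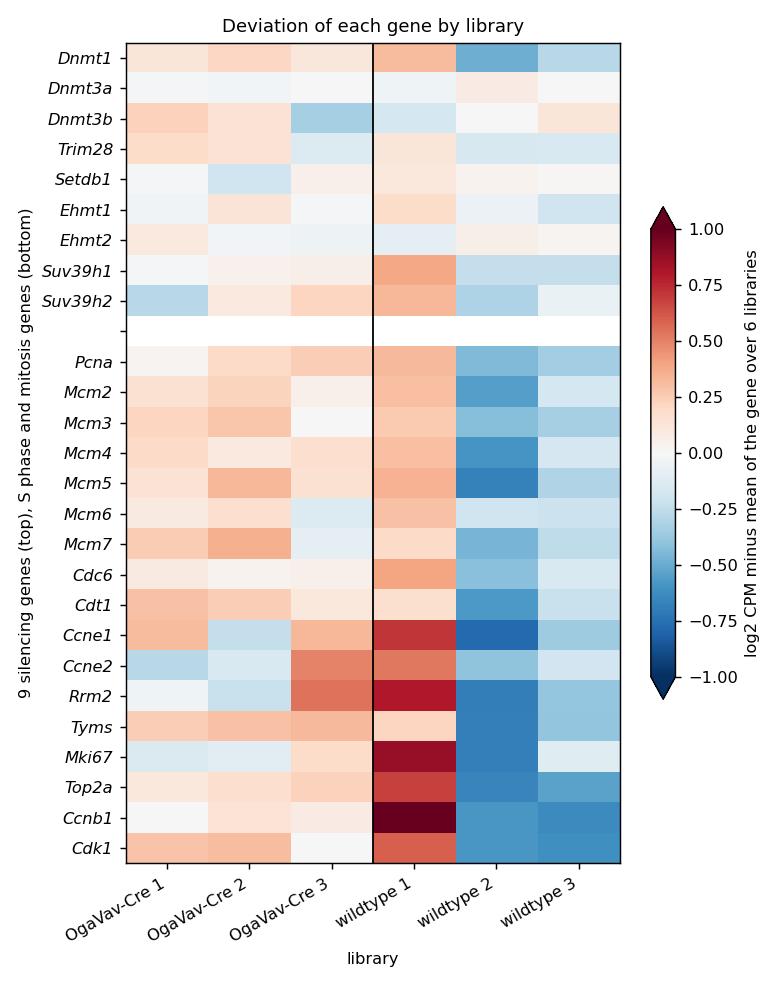
Deviation of each gene from its own mean over the 6 libraries (color, log2 CPM, red above and blue below) for the 9 silencing genes at the top and 17 S phase and mitosis genes at the bottom, with OgaVav-Cre libraries left of the line and wildtype libraries right of it. Dnmt1, Suv39h1 and Suv39h2 are red in wildtype 1 and blue in wildtype 2, as are the S phase and mitosis genes, while the Dnmt3a and Ehmt2 lines stay pale.

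Of the S phase and mitosis genes, 0 were called and 15 of 17 had a log2 fold change above 0, where 50.5% of all loci did. Their median was 0.24. Tyms, which makes thymidylate, was at 52.4, 54.2 and 55.5 CPM in OgaVav-Cre and at 51.5, 27.5 and 33.8 CPM in wildtype libraries 1, 2 and 3, and was the one gene of the list with an unadjusted p below 0.05 (log2 fold change 0.52, unadjusted p = 0.046, adjusted p = 0.465, edgeR). It had one in 7 of the 15 alternatives. Without wildtype library 1 the median was 0.55 and 14 of 17 had an unadjusted p below 0.05, all higher in OgaVav-Cre. In that fit 3385 of 23284 loci had one, in either direction. With no TMM factors 11 of 17 were above 0 and the median was 0.12. Without wildtype library 2 the median was 0.068, with 9 of 17 above 0, and without wildtype library 3 it was 0.079, with 12 of 17 above 0, and 0 genes had an unadjusted p below 0.05 in either. The median stayed above 0 in all 15 alternatives, and its size rested on which wildtype library was kept.

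For each gene, the locus with the most similar profile over the 6 libraries was sought by the root mean square difference of log2 CPM after the mean of each locus was removed. For Dnmt1 it was Gins1, a subunit of the replicative helicase complex, at 0.032 log2 units. Gins1 was at 16.2, 17.8 and 16.7 CPM in OgaVav-Cre and at 18.5, 10.6 and 11.9 CPM in wildtype libraries 1, 2 and 3. The nearest were Lnx1 for Dnmt3a (0.018), Hoxa7 for Dnmt3b (0.036), Pabpc4 for Trim28 (0.023) and Eif2ak1 for Setdb1 (0.022). Cdkn2aipnl was nearest to Ehmt1 (0.021), the locus ORF19 to Ehmt2 (0.029), Uchl4 to Suv39h1 (0.038) and Xpo1 to Suv39h2 (0.053). A flat profile is matched by many loci, and 897 lay within 0.1 log2 units of Dnmt3a, against 108 for Dnmt1 and 47 for Suv39h2.

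The partners of DNA methylation were next described. Of 8 genes 7 were tested, and 0 were called or had an unadjusted p below 0.05, with a median log2 fold change of 0.071. Without wildtype library 1 the median was 0.31 over 8 genes tested, 3 of them with an unadjusted p below 0.05, without wildtype library 2 it was -0.036, and with no TMM factors it was -0.042. Of all loci, 3385 of 23284 had such a p without wildtype library 1. Uhrf1, which guides Dnmt1 to hemimethylated DNA, was at 212, 199 and 224 CPM in OgaVav-Cre and at 279, 112 and 172 CPM in wildtype libraries 1, 2 and 3. The order of its wildtype libraries was that of Dnmt1, with a log2 fold change of 0.18 (standard error 0.296, 95% interval -0.51 to 0.86, edgeR adjusted p = 0.850). Its relative Uhrf2 was at 98.4, 103 and 109 CPM against 123, 126 and 116 CPM (log2 fold change -0.23, unadjusted p = 0.0651, adjusted p = 0.492, edgeR). Uhrf2 was the 1 gene of the 7 with all OgaVav-Cre libraries below all wildtype ones, where 9.97% of all loci tested were. Dnmt3l, the cofactor of the de novo enzymes in germ cells, had between 0 and 13 reads a library and was not tested.

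Among the 4 genes that remove DNA methylation, Tet1, Tet2 and Tet3 oxidize methylcytosine and Tdg excises the oxidized base. None was called. Tdg was at 33.1, 28.7 and 27.1 CPM in OgaVav-Cre and at 20.3, 16.7 and 16.1 CPM in wildtype libraries 1, 2 and 3, so that the OgaVav-Cre libraries all lay above the wildtype ones, as for 7.50% of all loci tested. Its log2 fold change was 0.74 (standard error 0.158, 95% interval 0.37 to 1.11, unadjusted p = 0.00174, adjusted p = 0.360, edgeR). For Tdg the adjusted p of DESeq2's Wald test was 0.0172, with a fold change still under the cutoff.

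Tet2, which restrains self-renewal of blood stem cells, was at 49.4, 43.3 and 53.7 CPM in OgaVav-Cre and at 61.4, 66.3 and 73.9 CPM in wildtype libraries 1, 2 and 3. The OgaVav-Cre libraries all lay below the wildtype ones, as for 9.97% of all loci tested. The log2 fold change was -0.46 (standard error 0.131, 95% interval -0.77 to -0.16, unadjusted p = 0.00823, adjusted p = 0.412, edgeR), so it did not pass the test over all loci. Tdg and Tet2 had an unadjusted p below 0.05 in all 15 alternatives, where the adjusted p ran from 0.0172 to 0.862 for Tdg and from 0.220 to 0.862 for Tet2. Of all loci 4.38% were higher and 6.27% lower in OgaVav-Cre at that p.

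Genes that read methylated DNA or act beside the H3K9 enzymes did not pass the test. Of 7 readers of methylated CpG 0 were called or had an unadjusted p below 0.05, and the median log2 fold change was -0.039, from -0.16 to 0.039 over the alternatives. Of 17 partners and readers of H3K9 methylation 16 were tested, 0 were called and the median was -0.065. Morc2a, an ATPase that acts with the HUSH silencing complex, was the one with an unadjusted p below 0.05. It was at 48.7, 46.4 and 50.3 CPM in OgaVav-Cre and at 59.2, 59.3 and 58.1 CPM in wildtype libraries 1, 2 and 3, and the genotypes did not overlap (log2 fold change -0.28, standard error 0.103, unadjusted p = 0.0267, adjusted p = 0.439, edgeR). Of the 16, 4 with Morc2a among them had all OgaVav-Cre libraries below all wildtype ones, where 9.97% of all loci did, and 0 had them all above. The unadjusted p of Morc2a was below 0.05 in 9 of the 15 alternatives.

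Of 11 H3K9 demethylases 10 were tested, and 0 were called or had an unadjusted p below 0.05, with a median of -0.071. The 10 genes of E2f6 and of the Polycomb complex PRC1.6, which recruits repression to germline promoters, gave the same counts and a median of -0.076.

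KRAB zinc finger proteins bring Trim28 and Setdb1 to DNA, and 9 of them with described targets were listed. The list was chosen with earlier results of these data known and does not stand for the whole class. It was the list with the lowest median, -0.33 over 7 tested of 8 in the table. None was called, and 6 of the 7 had a log2 fold change below 0, where 50.5% of all loci tested were above 0. Zfp445, which protects imprinted methylation, was at 121, 130 and 132 CPM in OgaVav-Cre and at 161, 161 and 170 CPM in wildtype libraries 1, 2 and 3, with no overlap (log2 fold change -0.36, standard error 0.109, unadjusted p = 0.0111, adjusted p = 0.412, edgeR). Zfp809, which recognizes retroviral primer binding sites, was at 20.3, 24.8 and 30.9 CPM against 31.2, 38.5 and 36.1 CPM, also with no overlap (log2 fold change -0.48, unadjusted p = 0.0327, adjusted p = 0.445, edgeR). These were 2 of the 7 with all OgaVav-Cre libraries below all wildtype ones, where 9.97% of all loci tested were. Zfp57, the other known guardian of imprints, was the gene above 0, at 10.8, 14.8 and 5.36 CPM against 4.50, 7.63 and 6.56 CPM (log2 fold change 0.73, adjusted p = 0.526, edgeR). An unadjusted p below 0.05 was found in all 15 alternatives for Zfp445 and in 11 for Zfp809. The median of the list stayed between -0.45 and -0.25 over the 15 alternatives.

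A list of 26 germline genes was drawn up as targets of DNA methylation, which was not measured in these cells. Of these, 8 had 0 reads in all 6 libraries, Mael, Sycp1, Stk31, Taf7l, Asz1, Mov10l1, Piwil1 and Sohlh2. At 3 reads this allows a level of up to between 0.109 and 0.156 CPM a library. A further 2, Tex101 and Fkbp6, had at most 2 reads in any library. Of the 11 genes tested, 1 was called, Tdrkh, with a log2 fold change of -2.18 (edgeR adjusted p = 0.0223), where 0.0318% of all loci were called. The list was chosen with earlier results of these data known, so its count is not a test against that share. With any 1 library left out, control or OgaVav-Cre, the fold change of Tdrkh ran from -2.30 to -2.06 and the call was lost (edgeR adjusted p from 0.0514 to 0.163), as it was with the replicate block (0.0783) and with RPKM (0.0890 and 0.0656 with a pseudocount of 0.1 and 1). Rbm44 had no reads in OgaVav-Cre and stood at 2.43 ± 0.313 CPM (SD, n = 3) in wildtype, so that OgaVav-Cre was at least 20.2-fold lower when set at the mean level of 3 reads a library (edgeR adjusted p = 0.0802).

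The other germline genes at an unadjusted p below 0.05 went in both directions. Stag3, a meiotic cohesin subunit, was at 3.02, 2.65 and 4.09 CPM in OgaVav-Cre and at 7.17, 5.86 and 4.91 CPM in wildtype libraries 1, 2 and 3 (log2 fold change -0.88, unadjusted p = 0.0137, adjusted p = 0.412, edgeR). Ddx4, the germ cell helicase Vasa, was at 18.5, 20.6 and 11.3 CPM against 7.45, 13.3 and 8.46 CPM (log2 fold change 0.79, unadjusted p = 0.0323, adjusted p = 0.445, edgeR). The OgaVav-Cre libraries of Stag3 all lay below the wildtype ones, as for 3 of the 11 genes and 9.97% of all loci tested. The genotypes of Ddx4 overlapped. An unadjusted p below 0.05 was found in all 15 alternatives for Stag3 and in 11 for Ddx4. The median over the 11 was -0.048. Over the alternatives it ran from -0.41, with at least 10 reads in every library (6 genes tested), to 0.50 without wildtype library 2.

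**Figure D5:**
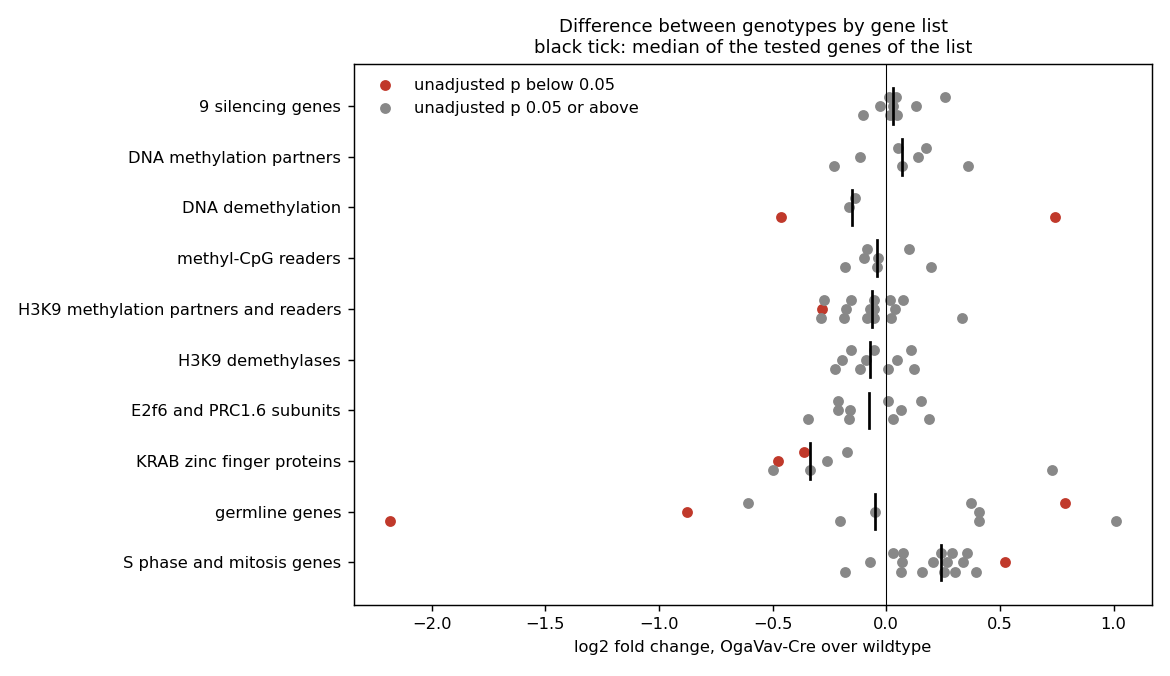
Log2 fold change of OgaVav-Cre over wildtype (horizontal axis) for each tested gene of 10 lists, red where the unadjusted edgeR p was below 0.05, with a black tick at the median of the list. The 9 silencing genes lie between -0.10 and 0.26, Tdrkh lies at -2.18, and Rbm44 is not drawn because it had no reads in OgaVav-Cre (it counts in the median).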

How the data were processed

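Poly(A) RNA-Seq was analyzed for 3 OgaVav-Cre and 3 wildtype mice, grouped by their labels. Reads were single-end and 50 bp long. The authors aligned them to mm9 and summarized raw read counts and RPKM per locus with Genomatix. CASAVA 1.8.2 is named in the submitters' processing notes, and the versions of the aligner and of the counting are not given in the sources used here. The deposited counts were used for all tests and the deposited RPKM for levels per length. The table's normalized expression, group means, fold changes and p-values of the authors' DESeq2 comparison were not used.

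Counts were tested with edgeR 4.0.16 in R 4.3.3 (TMM, filterByExpr, quasi-likelihood test with genotype as the single term) with p-values adjusted after Benjamini and Hochberg across 22032 loci. Intervals of 95% were derived from the F statistic on 7.70 degrees of freedom. The biological coefficient of variation was 0.308. Counting error alone is covered by the limit of 3 reads. Alternatives were RLE scaling, no TMM factor, no filter, a minimum of 10 reads in all libraries, the Wald test of DESeq2 1.42.0, limma-voom (limma 3.58.1), a replicate block, each library left out, and limma-trend on RPKM with 0.1 or 1 added before the log2. The fits were checked on simulated counts, with known changes placed only in loci with many reads. The check does not cover changes in loci with few reads or a spread shared by many loci of a library. Values were tabulated in Python 3.11.15 with pandas 2.3.3 and plotted with matplotlib 3.10.9.

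The 9 genes, the lists and the rule for named genes were chosen with earlier results of these data known. Beside the 9, the text names genes of each list with an unadjusted p below 0.05 (up to the 3 smallest), genes past the adjusted cutoff, Mgea5, other loci under a member's symbol and the locus most alike to each member. Uhrf1, Uhrf2, Dnmt3l, Zfp57, overlapping loci and germline genes at or near 0 reads were named after their values were seen.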

Additional observations from a re-analysis of the deposited data

How the results depend on the processing

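None of the 9 genes was called under any of the 15 alternatives. With edgeR 0 of the 9 had an unadjusted p below 0.05 in the analysis as reported. The DESeq2 Wald test and limma-voom, run on all 6 libraries only, also gave 0. Without wildtype library 1, 2 of the 9 (Dnmt1 and Suv39h1) had one with edgeR, where 3385 of 23284 loci did. Loci called over the whole table numbered 7, against 21 without a filter on low counts, 4 with at least 10 reads in every library, 114 with the DESeq2 Wald test, 4 with RPKM and a pseudocount of 1, and 3 to 9 with a library left out.

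Estimates near 0 changed sign with the scaling. Without TMM factors, which moved the median of all loci by -0.12 log2, the log2 fold changes were -0.084 for Dnmt3b, -0.073 for Ehmt1, -0.11 for Ehmt2, -0.087 for Suv39h1 and -0.095 for Suv39h2. With RPKM and a pseudocount of 0.1 they were -0.036, -0.019, -0.056, -0.0089 and -0.040, and with a pseudocount of 1 they were -0.032, -0.018, -0.053, -0.0098 and -0.027.
With a library left out in turn, the log2 fold change ran from 0.11 to 0.53 for Dnmt1, from -0.056 to 0.0090 for Dnmt3a, from -0.063 to 0.20 for Dnmt3b, from -0.042 to 0.15 for Ehmt1, from -0.034 to 0.048 for Ehmt2, from -0.078 to 0.27 for Suv39h1 and from -0.11 to 0.21 for Suv39h2. It kept its sign for Dnmt1, and also for Trim28 (0.073 to 0.23) and Setdb1 (-0.15 to -0.030). The difference in paralog share ran from -3.99 to 0.895 percentage points for Dnmt3a, from -1.04 to 2.78 for Ehmt1 and from -0.588 to 0.768 for Suv39h1. The cause of these changes of sign was not tested.

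The genes of the lists were put through the same alternatives after the data were seen. Tdrkh was the 1 gene called, against 2 (with Rbm44) without a filter, with the DESeq2 Wald test and with limma-voom, and 0 with the replicate block, with RPKM at a pseudocount of 0.1 or 1 and with any library left out (0 to 0), where 6 to 29 of the list genes had an unadjusted p below 0.05. The 29, of 90 tested, came without wildtype library 1, where 3385 of 23284 loci had one.

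The replicate numbers are shared by both genotypes, but the deviations of same-numbered libraries correlated at -0.081, 0.26 and 0.32, so the numbers were not taken to pair the mice. With the replicate block 6 loci were called, and the log2 fold changes were 0.30 for Dnmt1, -0.029 for Dnmt3a, 0.033 for Dnmt3b, 0.13 for Trim28, -0.10 for Setdb1, 0.049 for Ehmt1, 0.012 for Ehmt2, 0.060 for Suv39h1 and 0.028 for Suv39h2. OgaVav-Cre library 1 correlated best with wildtype library 2.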
